A study of Mus musculus with 29 samples.

Results

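The 10 genes described here encode subunits of the transcription factor NF-kappaB (Nfkb1, Nfkb2, Rel and Rela), proteins that restrain it (Nfkbia, Nfkbid and Tnfaip3) and the mRNA-decay factors Zfp36, Zfp36l1 and Zfp36l2. They were taken by gene name from a table of 54838 genes, and each name matched 1 row. The names were chosen by their measured levels, that is, with the TPM values of the 2 groups in view, so the difference between the groups in these genes is given as a description and not as a finding. All 29 samples are single cells labelled as T cells, taken from the splenocytes of OT-1 mice, which carry a transgenic T cell receptor for an ovalbumin (OVA) peptide. For 21 cells, called OVA cells 1 to 21, the label gives an interaction of 3 h with OVA-presenting APC (antigen-presenting cells). For 8 cells, called nothing cells 1 to 8, it gives 3 h with APC that presented nothing, and the numbers are only names. Each cell was lysed in a tube and its RNA made into full-length cDNA by a modified SMART-seq2 method. The labels give no mouse, culture, day or age and do not say what kind of cell the APC were, so each group counts as 1 sample and no test was made.

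NF-kappaB is a family of dimers held in the cytoplasm of resting T cells by inhibitors of the IkappaB family. Antigen receptor signalling that reaches the IkappaB kinase leads to destruction of the inhibitors and entry of the dimers into the nucleus. Their targets include the inhibitor genes themselves, which closes a negative feedback loop. The Zfp36 family binds AU-rich elements in the 3' untranslated regions of short-lived mRNAs, among them cytokine and early response mRNAs, and recruits deadenylases to them. The family thus limits the output of the same stimuli at the level of the mRNA.

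The AU-rich element that Zfp36 proteins bind is itself present in mRNAs of the group, which is why these sites are shown. In the longest annotated 3' untranslated region of each gene (GENCODE M21, GRCm38), 6 of the 10 genes held the 9-letter element TTATTTATT, read on the mRNA strand. Of all 21037 protein-coding genes with such a region 7.65% held it, and of the 2439 kept genes (defined below) 9.76%. Each of the 6 genes held it at 1 place, given below for 5 of them, 5' to 3' as DNA, with the element in capitals and 9 bases on each side.
Rel: tcccagactTTATTTATTttttttagc
Nfkbia: gaccacgttTTATTTATTgtgcttttg
Zfp36: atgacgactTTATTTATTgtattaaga
Zfp36l1: actgttggaTTATTTATTttagaaatt
Zfp36l2: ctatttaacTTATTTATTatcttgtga
These sites began at base 4413 of the 5418-base region of Rel, base 296 of 512 in Nfkbia, base 589 of 774 in Zfp36, base 1404 of 1835 in Zfp36l1 and base 821 of 1822 in Zfp36l2. The regions of Nfkb1, Nfkb2, Rela and Nfkbid, of 751, 634, 714 and 559 bases, held no match. All 3 mRNA-decay factors and 2 of the 3 inhibitors were thus among the genes with the element, against 1 of the 4 subunits. Regions with the element ran from 512 to 5418 bases and those without from 559 to 751, beside a background median of 960. Neither this contrast nor the shares over all genes were matched for length. A match is a run of letters and does not show that a protein binds there.

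Sequences around the start sites are shown because several of these genes are known NF-kappaB targets. RefSeq promoter windows (GRCm38.p6), from 250 bases before to 50 bases after a start site, were at hand for 8 of the 10 genes, without Nfkb1 and Zfp36l2. The 10-letter kappaB consensus was searched on both strands, with overlapping matches counted. It was found in a window of 5 of these 8 genes (Nfkb2, Rel, Nfkbia, Nfkbid and Tnfaip3), against 5.14% of the 27025 genes with a window and 4.51% of the 32851 windows. The windows of Rela, Zfp36 and Zfp36l1 had no match. Of the 3 windows of Nfkbid 1 had matches, as did 1 of the 2 windows of Tnfaip3 and all 3 of Nfkb2. The Nfkb2 windows that start at 46305445 and 46305680 overlap and share a match, the only match of the latter. The windows below run 5' to 3' on the gene's strand, with matches to the consensus in capitals.
Nfkbia, chr12:55492598-55492897, minus strand: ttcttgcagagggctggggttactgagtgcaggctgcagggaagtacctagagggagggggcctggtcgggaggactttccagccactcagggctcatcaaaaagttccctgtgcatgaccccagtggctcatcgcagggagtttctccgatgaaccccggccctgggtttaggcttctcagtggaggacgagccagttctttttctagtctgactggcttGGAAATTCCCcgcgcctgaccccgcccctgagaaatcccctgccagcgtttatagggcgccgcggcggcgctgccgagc
Rel, chr11:23770920-23771219, minus strand: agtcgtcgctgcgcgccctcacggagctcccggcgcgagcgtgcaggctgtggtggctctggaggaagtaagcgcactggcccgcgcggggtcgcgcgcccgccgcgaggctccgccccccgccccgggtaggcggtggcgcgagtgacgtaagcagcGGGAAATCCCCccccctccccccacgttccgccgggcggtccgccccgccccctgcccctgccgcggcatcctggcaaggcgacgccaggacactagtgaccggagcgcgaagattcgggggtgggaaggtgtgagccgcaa
Nfkb2, chr19:46304487-46304786, plus strand: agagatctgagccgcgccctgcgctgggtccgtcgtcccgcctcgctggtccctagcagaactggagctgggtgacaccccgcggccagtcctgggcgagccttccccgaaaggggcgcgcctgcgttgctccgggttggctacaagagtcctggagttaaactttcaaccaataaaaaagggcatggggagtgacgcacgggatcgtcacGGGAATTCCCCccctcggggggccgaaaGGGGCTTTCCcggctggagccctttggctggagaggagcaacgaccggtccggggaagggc
Counted from the start site, with negative numbers upstream, the match of Nfkbia lay at -29 to -20. Rel had 2 overlapping matches, at -92 to -83 and -91 to -82. This Nfkb2 window had 2 overlapping matches, at -39 to -30 and -38 to -29, and another match at -11 to -2. The files measure mRNA only and do not show whether any of these letters was bound.

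The libraries differed widely in content, and these values bear on every result below. The deposited values are TPM, transcript abundances scaled by length and to a total of 1000000 per cell, and the ERCC spike-in RNAs are part of that total. Spike-ins took 5.58% to 97.7% of TPM in OVA cells (median 84.9%) and 14.8% to 99.4% in nothing cells (median 87.8%), and 233 to 4180 and 92 to 6385 genes were detected per cell, with detected meaning at least 1 TPM. TPM keeps no record of reads, so depth is unknown and a gene at 0 is described only as listed at 0. Housekeeping genes were at 0 in many cells too, with a mean of 2.86 ± 2.26 of 10 detected per OVA cell (SD over 21 cells) and 1 ± 1.41 per nothing cell (SD over 8 cells). T cell markers were sparse: between 0 and 4 of 13 were detected per OVA cell and between 0 and 2 per nothing cell, and Cd8a, Lck, Cd2 and Cd5 were at 0 in all 29 cells. Neutrophil markers were found in both groups, with 0 to 9 of 9 detected and a summed level of 0 to 20527 TPM in OVA cells and 0 to 6 detected and 0 to 4016 TPM in nothing cells. OVA cell 8 was the only cell with all 9. Of the B cell markers Cd79a and Ms4a1 were at 0 in all cells, while Cd79b was detected in nothing cell 4 and Cd74 in nothing cell 7, at 35.9 and 41.8 TPM. Of the macrophage and dendritic cell markers Adgre1, Itgax and H2-Aa were at 0 in all cells, while Lyz2 was present in 5 OVA and 1 of the nothing cells, Csf1r in 4 and 1, and Cst3 in OVA cells 8, 9 and 13. Receptors of smell and pheromone sensing (olfactory and vomeronasal genes) served as a measure of scattered signal. Their detection rate divided by that of the remaining protein-coding genes was 0.572 ± 0.274 (SD, 21 OVA cells) and 0.983 ± 0.243 (SD, 8 nothing cells). The part of these library features in the results below was not tested.

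mRNAs of the group were found in OVA cells with 1 exception. At least 1 of the 10 genes was detected in 11 of 21 OVA cells (52.4%, exact Clopper-Pearson 95% bounds of 29.8% and 74.3%). In the nothing group this held for 1 of 8 cells (12.5%, with bounds of 0.316% and 52.7%). Intervals cover counting error only. Of 210 possible detections in OVA cells 35 were made (16.7%), and of 80 in nothing cells 1 was made (1.25%). All kept genes (defined below) had a mean share detected per cell of 17.9% (OVA, SD 13.2) and 14.4% (nothing, SD 17.2). The rate of the 10 genes and that of kept genes are not alike in filter, so neither is called higher. Being kept takes detection in 3 cells, and 4 of the 10 genes fall short of it. Those 4 were each detected in 4.76% to 9.52% of OVA cells, and the 6 kept ones in 19.0% to 33.3%. The single value above 0 in the nothing group was Zfp36l2 at 4.43 TPM in nothing cell 7. The other 9 genes were listed at 0 in all 8 nothing cells, which, from counting error alone, allows a share of such libraries with a detected value of up to 37.5%. It sets no limit on the share of cells that hold the mRNA. Among all genes detected in at least 1 cell 46.9% were detected in OVA cells only, and the OVA group has more cells.

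**Figure D1:**
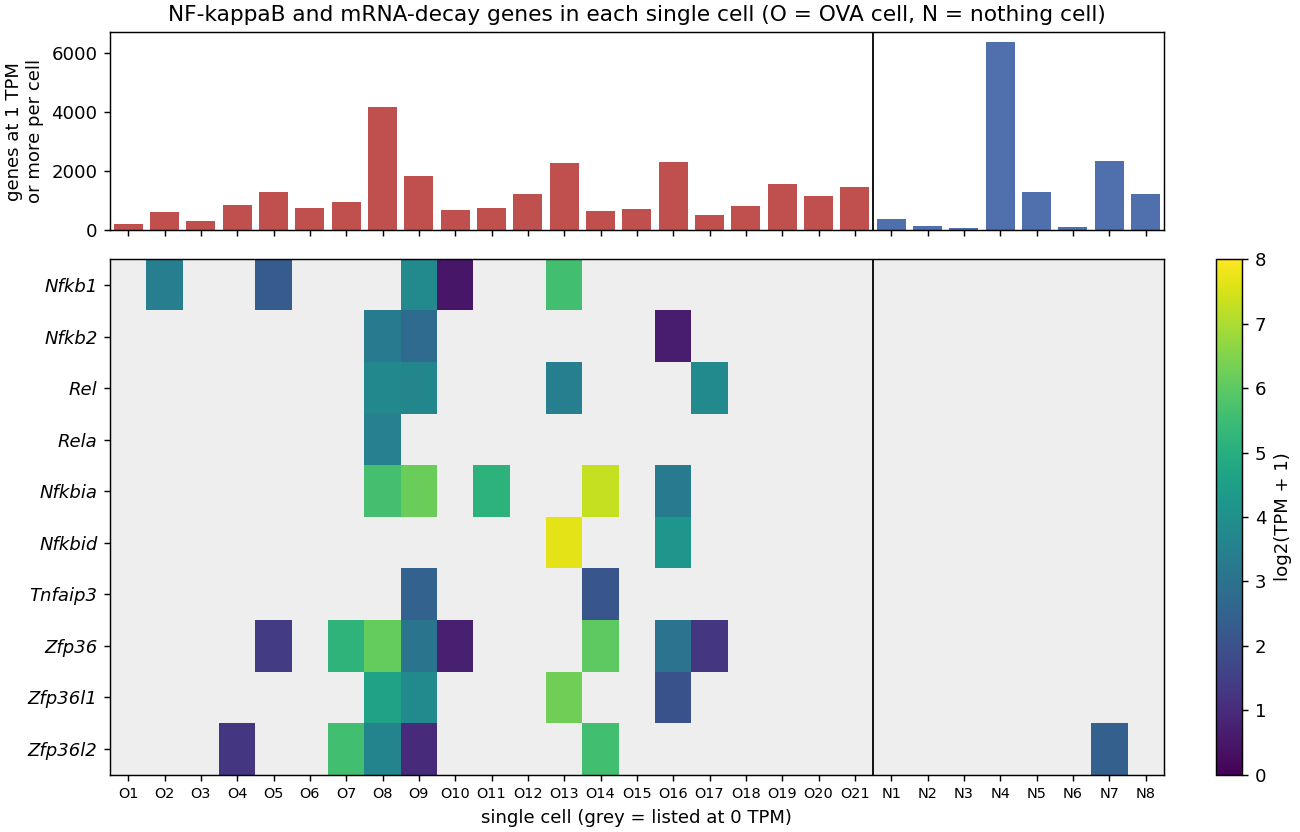
Upper panel, number of genes at 1 TPM or more in each of the 29 cells (red, OVA cells; blue, nothing cells). Lower panel, log2(TPM + 1) of each of the 10 genes in the same cells, with grey for genes listed at 0. Most coloured fields fall in OVA cells 8, 9, 13, 14 and 16, and the nothing group has 1 coloured field, Zfp36l2 in cell 7.

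Among the subunits, Rel and Nfkb1 were each detected in 4 OVA cells, Nfkb2 in 2 and Rela in 1. Rel (ENSMUSG00000020275, chromosome 11, 23736847 to 23770970, minus strand) encodes c-Rel, the subunit tied most closely to T cell activation. OVA cells 8, 9, 13 and 17 had 12.3, 11.9, 9.98 and 12.8 TPM of Rel, in that order, and it was at 0 in the other 17 OVA cells and all 8 nothing cells. These 4 values lay close together, with the highest 1.29 times the lowest, whereas the spike-in shares of the same libraries ran from 5.58% to 84.9%. Rescaled without spike-ins, the value of cell 17 was 85.2 TPM and those of cells 8, 9 and 13 were 13.1, 13.6 and 14.1.

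Nfkb1 (ENSMUSG00000028163, chromosome 3, 135584655 to 135691547, minus strand) encodes the precursor of a DNA-binding subunit. OVA cells 13, 9, 2 and 5 had 47.0, 12.9, 9.68 and 3.999 TPM of Nfkb1, in that order, and OVA cell 10 had 0.402 TPM, under the detection threshold. The highest detected value was 11.8 times the lowest, a wider spread than that of Rel. Nfkb1 and Rel shared OVA cells 9 and 13, with ratios of Nfkb1 to Rel of 1.08 and 4.71.

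Nfkb2 (ENSMUSG00000025225, chromosome 19, 46304320 to 46312385, plus strand) encodes the precursor used by the alternative pathway. OVA cells 8 and 9 had 8.70 and 5.94 TPM of it, and OVA cell 16 had 0.520 TPM, under the threshold. Its 3' end overlaps Psd on the other strand, which had 5.10 and 2.30 TPM in OVA cells 9 and 16 and 115 TPM in OVA cell 21, where Nfkb2 was at 0. Whether the counting used strand is not given, so reads of the pair cannot be told apart in OVA cells 9 and 16. Rela (ENSMUSG00000024927, chromosome 19, 5637483 to 5648130, plus strand), which encodes the most widely used transactivating subunit, had 10.2 TPM in OVA cell 8 and was at 0 in all 28 other cells. OVA cell 8 is the library with all 9 neutrophil markers, so no cell without the full set had Rela.

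Nfkbia had the highest levels among the genes found in several cells. It encodes IkappaBalpha, the main cytoplasmic inhibitor and itself an NF-kappaB target (ENSMUSG00000021025, chromosome 12, 55489410 to 55492647, minus strand). OVA cells 14, 9, 8, 11 and 16 had 157, 72.2, 48.7, 35.0 and 8.91 TPM of Nfkbia, in that order, and the other 16 OVA cells and all 8 nothing cells were at 0. The order of the cells differs without spike-ins, which hold 93.2% of TPM in cell 14, 89.0% in cell 11 and 5.58% to 12.6% in cells 8, 9 and 16. On that scale cells 14, 11, 9, 8 and 16 had 2291, 317, 82.5, 51.6 and 9.88 TPM. Ranked within its own library as deposited, Nfkbia stood above 92.2% of detected genes in cell 9, 88.6% in cell 14, 85.5% in cell 8, 73.6% in cell 11 and 59.1% in cell 16. It was thus above the median gene of each of these 5 libraries, whereas 15 of the 36 detected values of the 10 genes lay below that median.

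Nfkbid and Tnfaip3 were each detected in 2 OVA cells. Nfkbid (ENSMUSG00000036931, chromosome 7, 30421732 to 30428746, plus strand) encodes IkappaBNS, a nuclear member of the inhibitor family. OVA cell 13 had 201 TPM, the highest deposited value of any of the 10 genes in the 29 cells, and OVA cell 16 had 17.4. Without spike-ins it had 284 TPM in OVA cell 13, below Nfkbia in OVA cells 14 and 11 and below Zfp36 and Zfp36l2 in OVA cell 14, at 2291, 317, 940 and 689 TPM. Tnfaip3 (ENSMUSG00000019850, chromosome 10, 19000910 to 19015657, minus strand) encodes a ubiquitin-editing enzyme that shuts off signalling to NF-kappaB. OVA cells 9 and 14 had 4.70 and 3.37 TPM of it, and in both cells Nfkbia was higher, at 15.4 and 46.5 times that level. Nfkbid and Tnfaip3 shared no cell.

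Zfp36 was detected in more cells than any other gene of the group. It encodes tristetraprolin (ENSMUSG00000044786, chromosome 7, 28376784 to 28380253, minus strand). OVA cells 8, 14 and 7 had 68.7, 64.4 and 36.1 TPM of Zfp36. OVA cells 9, 16, 5 and 17 had 7.37, 7.21, 1.61 and 1.41 TPM, and OVA cell 10 had 0.631 TPM, below the threshold. The detected levels thus spread widely, with the highest 48.8 times the lowest. Without spike-ins they ran from 2.48 TPM in OVA cell 5 to 940 TPM in OVA cell 14, with OVA cells 7 and 8 at 106 and 72.8 TPM. At a threshold of 10 TPM it was detected in 3 OVA cells in place of 7.

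The paralogs of Zfp36 encode proteins with the same type of zinc-finger domain and binding site. Zfp36l1 (ENSMUSG00000021127, chromosome 12, 80107754 to 80113013, minus strand) had 75.4, 23.3, 13.3 and 3.02 TPM in OVA cells 13, 8, 9 and 16, in that order. Zfp36l2 (ENSMUSG00000045817, chromosome 17, 84183931 to 84187947, minus strand) had 47.2, 46.4, 11.2 and 1.41 TPM in OVA cells 14, 7, 8 and 4, 0.959 TPM in OVA cell 9, below the threshold, and 4.43 TPM in nothing cell 7. The value in nothing cell 7 lay inside the range of the OVA cells. The paralogs shared only OVA cell 8 at the detection threshold, while Zfp36 was found with Zfp36l1 in 3 cells and with Zfp36l2 in 3, each 2 without OVA cell 8. In OVA cells 7 and 14 Zfp36 and Zfp36l2 stood at like levels, with ratios of 0.779 and 1.36, and in OVA cell 8 the ratio was 6.14. The antisense genes that overlap Zfp36, Zfp36l1 and Zfp36l2 (Gm44710, Gm26669 and AC132455.1) were not detected in any cell.

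Group means follow from these few cells. Genes were kept for comparison where at least 3 of the 29 cells had them detected, which left 3717 genes and 6 of the 10 (Nfkb1, Rel, Nfkbia, Zfp36, Zfp36l1 and Zfp36l2). Zfp36l1, Rel and Nfkb1 lay just inside this limit with 4 cells, and Nfkb2, Nfkbid and Tnfaip3 with 2 cells and Rela with 1 lay outside it. The mean of log2(TPM + 1) over nothing cells was subtracted from that over OVA cells, a scale that understates differences of low genes. Nfkbia differed by 1.31 (SD over 21 OVA cells 2.50) and Zfp36 by 1.28 (SD 2.11), both with all 8 nothing cells at 0. Size and order depended on the scale: over nuclear protein-coding genes they differed by 2.39 and 2.98, and with a pseudocount of 10 by 0.61 and 0.48. Zfp36l1 differed by 0.80 (SD 1.81), or 0.52 without OVA cell 13, Nfkb1 by 0.74 (SD 1.602) and Rel by 0.70 (SD 1.48). Over nuclear protein-coding genes these 3 differed by 1.51, 1.64 and 1.46, and with a pseudocount of 10 by 0.31, 0.25 and 0.21. Zfp36l2 differed by 0.50 (SD 1.79 over OVA and 0.86 over nothing cells), or 0.81 without nothing cell 7 and 0.27 without OVA cell 14. It was 0.10 without cells over 90% spike-ins and 1.25 after rescaling over nuclear protein-coding genes, the lowest and highest values among the alternatives. For each of the 6 genes the SD over OVA cells exceeded the difference, and most cells of both groups were at 0.

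The 4 genes outside the limit differed by 0.56 (Nfkbid, or 0.21 without OVA cell 13), 0.32 (Nfkb2, or 0.17 without OVA cell 8), 0.22 (Tnfaip3, or 0.11 without OVA cell 9) and 0.17 (Rela, or 0 without OVA cell 8). For the 9 genes at 0 in every nothing cell no difference below 0 is possible.

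Of the 6 kept genes 6 were higher in OVA cells, against 56.4% of all kept genes, and 5 were detected in OVA cells only, against 25.3%. Their median difference was 0.77, beside 0.10 over all kept genes and 1.63 over the 7 kept housekeeping genes. A difference of at least 1 was reached by 2 of the 6 genes (Nfkbia and Zfp36) in the higher direction, against 9.31% of all kept genes, and by 0 in the lower direction, against 6.62%. The count of 2 depends on the scale: it was 5 with a pseudocount of 0.1, 0 with a pseudocount of 10, 4 with size factors and 6 after rescaling over nuclear protein-coding genes. The size factors rest on only 11 genes. Since the names were chosen with this contrast in view, nothing is read from these counts.

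**Figure D2:**
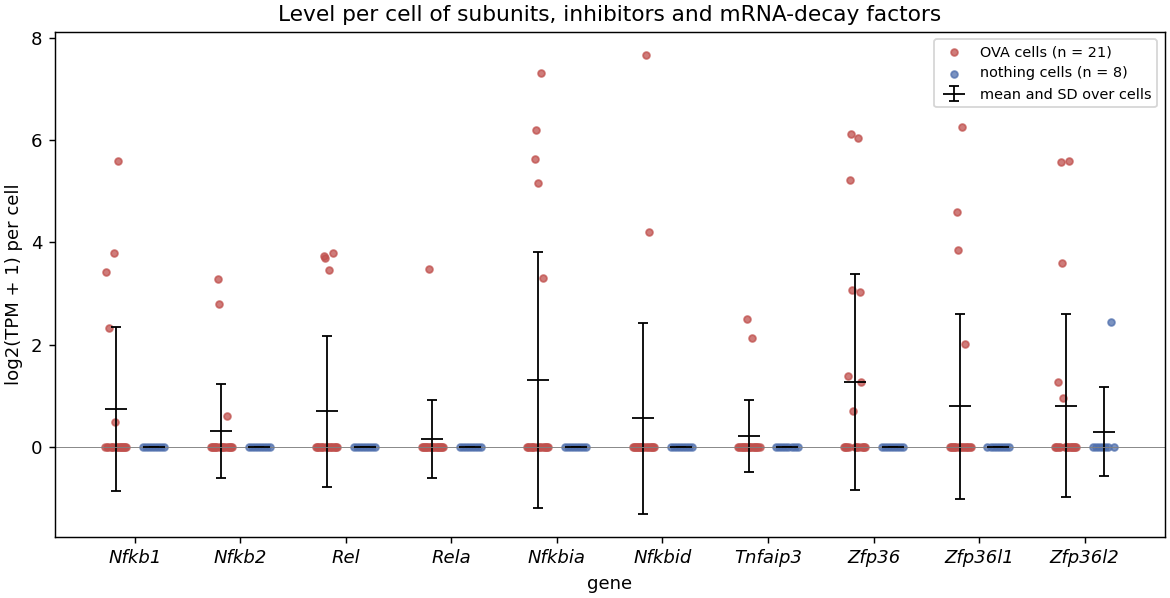
Level of each gene as log2(TPM + 1), 1 point per cell, in 21 OVA cells (red) and 8 nothing cells (blue), with the mean and SD over cells. In each gene most points lie at 0, and the only nothing cell above 0 is cell 7 for Zfp36l2.

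The mRNAs were gathered in few cells. OVA cells 8 and 9 each had 7 of the 10 genes, and OVA cells 13, 14 and 16 each had 4, so 26 of the 36 detections (72.2%) fell in 5 cells. These 5 cells were picked by that count. Of all kept genes, OVA cells 8, 9, 13, 14 and 16 had 56.6%, 30.9%, 39.6%, 10.9% and 33.8% detected, in that order. The mean over OVA cells was 17.9%. At least 2 genes were detected in 8 of 21 OVA cells (38.1%, exact bounds of 18.1% and 61.6%) and in 0 of 8 nothing cells. OVA cells 5, 7 and 17 had 2 genes, OVA cells 2, 4 and 11 and nothing cell 7 had 1, and the other 17 cells had 0. OVA cell 8 had Nfkb2, Rel, Rela, Nfkbia and all 3 decay factors, whereas OVA cell 9 had Nfkb1, Nfkb2, Rel, Nfkbia, Tnfaip3, Zfp36 and Zfp36l1.

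Cells with many of these mRNAs mostly had many detected genes as well. OVA cell 8 had 4180 genes detected, OVA cell 16 had 2320, OVA cell 13 had 2273 and OVA cell 9 had 1850, against a median of 855 over OVA cells. OVA cell 14 was apart from them, with 665 genes detected, spike-ins at 93.2% of TPM and 4 genes of the group, of which Nfkbia, Zfp36 and Zfp36l2 stood above 72.2% to 88.6% of its detected genes. In the other direction, OVA cell 19 had 1581 genes detected, spike-ins at 28.5% and 5 of 10 housekeeping genes but none of the 10 genes. Nothing cell 4, with 6385 detected genes the richest library of all, also had none. That cell had 2 of 10 housekeeping genes and 47.6% of all kept genes, and its ratio of olfactory and vomeronasal receptor detection, described above, was 1.33, against 0.0317 for OVA cell 8. Among cells with at least 1000 detected genes, 5 of 9 OVA cells had a gene of the group, with 24 detections, and 1 of 4 nothing cells, with 1 detection.

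**Figure D3:**
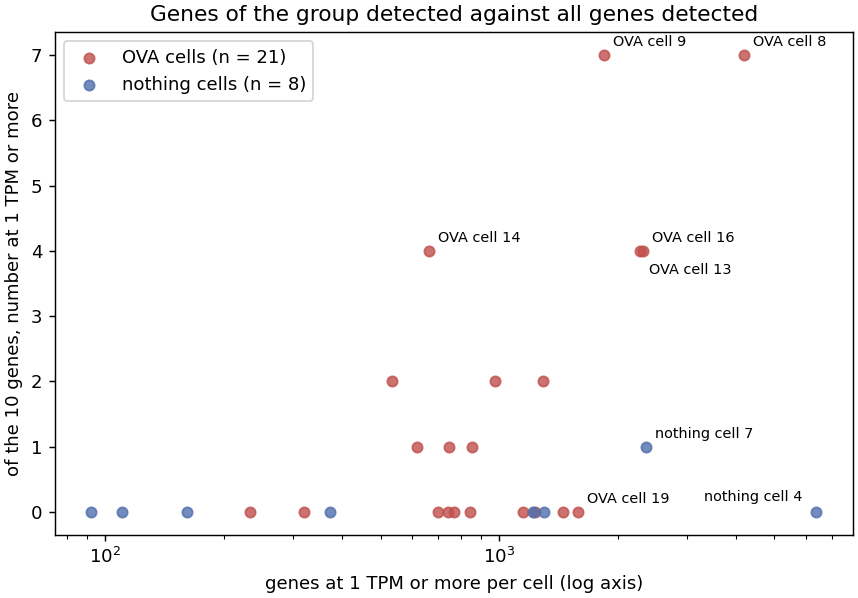
Number of the 10 genes at 1 TPM or more (vertical axis) against the number of all genes at 1 TPM or more (horizontal log axis) in 21 OVA cells (red) and 8 nothing cells (blue). OVA cells 8 and 9 reach 7, OVA cells 13, 14 and 16 reach 4, and nothing cell 4 lies at 0 with 6385 genes.

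Subunits, inhibitors and decay factors were found together in some cells. A subunit was detected in 6 cells, an inhibitor in 6 and a decay factor in 10. All 3 roles were present in OVA cells 8, 9 and 13, where 56.6%, 30.9% and 39.6% of all kept genes were detected as well. In OVA cells 14 and 16 inhibitors and decay factors were detected with no subunit, and in OVA cells 5 and 17 a subunit and a decay factor with no inhibitor. Decay factors alone were found in OVA cells 4 and 7 and nothing cell 7, a subunit alone in OVA cell 2 and an inhibitor alone in OVA cell 11. Of the 6 cells with an inhibitor 5 also had a decay factor, and of the 10 cells with a decay factor 5 had an inhibitor.

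Of the 45 pairs of genes 38 were detected together in at least 1 cell and 6 in at least 3 cells. Without OVA cell 8 these counts were 29 and 1. No such count is given for pairs of other genes, so nothing particular to the group is read from them. The pair found together most was Nfkbia and Zfp36, in OVA cells 8, 9, 14 and 16, which is 4 of the 5 cells with Nfkbia (80%) and 4 of the 7 with Zfp36 (57.1%). It was also the pair left with 3 cells when OVA cell 8 was set aside. The ratio of Nfkbia to Zfp36 in these cells was 0.708, 9.80, 2.44 and 1.24, so the order of the 2 mRNAs was not fixed. Nfkbia exceeded Rel in both cells that had the pair, by 3.95 times in OVA cell 8 and 6.07 times in OVA cell 9. Rel and Zfp36l1 shared OVA cells 8, 9 and 13, of which 2 are left without OVA cell 8. The pairs never seen together were Nfkb1 with Rela, Nfkb1 with Zfp36l2, Nfkb2 with Nfkbid, Rela with Nfkbid, Rela with Tnfaip3, Nfkbid with Tnfaip3 and Nfkbid with Zfp36l2. Each has a gene found in no more than 4 cells, so an empty pair says little, and pairs share their libraries.

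**Figure D4:**
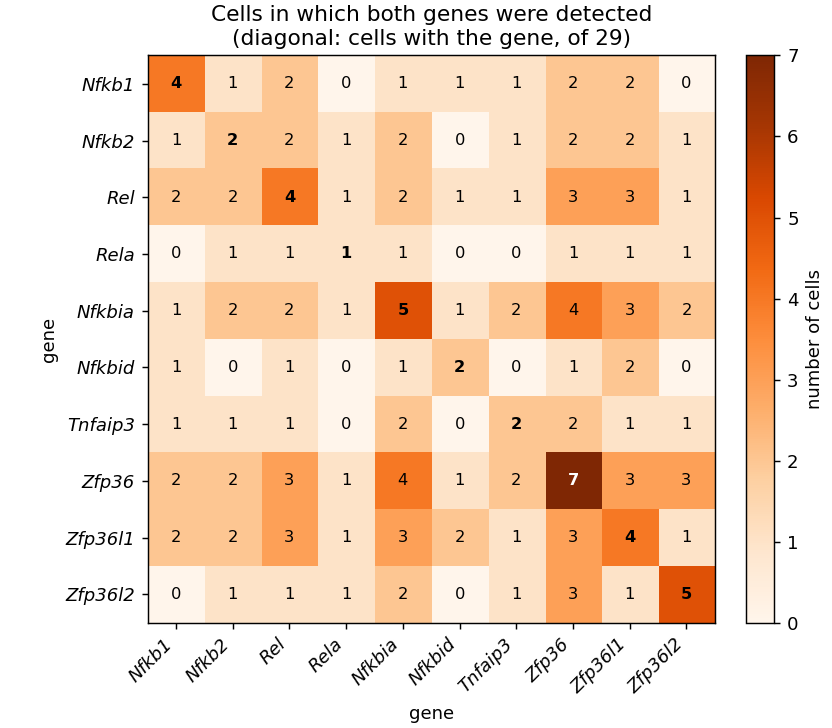
Number of cells, of 29, in which both genes of a pair were at 1 TPM or more, with the number of cells for each gene on the diagonal. The highest count off the diagonal is 4, for Nfkbia and Zfp36.

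T cell markers were found in cells with and without genes of the group. At least 1 of Trac, Trbc1 and Trbc2, the constant regions of the receptor chains, was detected in OVA cells 5, 9, 13 and 16, which all had genes of the group and together held 17 of the 36 detections (47.2%). Of all kept genes these cells had 22.1%, 30.9%, 39.6% and 33.8% detected, in that order, beside a mean of 17.9% over OVA cells. In cells with none of the 10 genes, Cd3e and Cd3g, of the receptor complex, had 43.4 and 35.3 TPM in nothing cell 5. Cd3g had 31.4 TPM in OVA cell 21, Cd247 had 26.7 TPM in nothing cell 4, and Thy1 had 1.81 and 240.3 TPM in OVA cells 12 and 15. Thy1 was also detected in OVA cells 5, 8, 11, 16 and 17, which had genes of the group. OVA cell 13, with 4 of 13 T cell markers and no neutrophil marker, had Nfkb1, Rel, Nfkbid and Zfp36l1. It also had the NK cell marker Klrd1 at 648 TPM and the macrophage and dendritic cell marker Cst3 at 350 TPM. OVA cells 9 and 16 had 4 and 6 of the 9 neutrophil markers beside their T cell receptor transcripts, at summed levels of 1102 and 4171 TPM. Red cell markers summed to 1052, 452 and 352 TPM in OVA cells 5, 9 and 16, in that order. OVA cell 14, with the highest Nfkbia, had no marker of T cells or neutrophils above the threshold.

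Genes with the most similar detection pattern were ranked by the Jaccard index, the number of cells with both genes divided by the number with either, over the 29 cells. Nfkb1 was closest to Trac, a T cell receptor chain gene, with 3 of 4 cells in common (index 0.75). Rel was closest to Khdc4, with the same 4 cells (index 1), then to Rpph1 and Hsp90b1 (0.8 each). Zfp36l1 had exactly the cells of 15 kept genes, among them Cd53, Rsrp1 and Samd9l. Zfp36 was closest to Suco with 5 of 7 cells (0.714), then to Rps3 and Minos1 (0.625 each). Nfkbia was closest to Abca7, Srsf5 and Smarca4 (0.667 each) and Zfp36l2 to Bnipl, Atp5c1 and Gucd1 (0.6 each). With so few cells ties are many and all these genes share their libraries, so the ranks are a description.

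Other genes that act on NF-kappaB were found in few cells as well. Relb, the remaining subunit, had 23.7 and 6.07 TPM in OVA cells 13 and 9 and was not detected elsewhere. Of 12 further inhibitors and deubiquitinases 8 were detected in some cell and 3 were kept, all 3 on the higher side in OVA cells (median difference 0.34). Beside this and the following counts, 56.4% of all kept genes were higher in OVA cells, and a gene kept through OVA cells alone could not be lower. Tnip1, which helps Tnfaip3 to bind ubiquitin, was found in 4 OVA cells and in none of the nothing cells (difference 0.99, highest at 247 TPM in OVA cell 13). Nfkbiz, an inducible nuclear IkappaB protein, was detected in 3 OVA cells and in nothing cell 4 (0.10). Tax1bp1, an adaptor of Tnfaip3, was detected in 3 and 1 cells (0.34).

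Upstream, 12 of the 18 listed genes of the pathway from the antigen receptor to the IkappaB kinase were detected and 4 were kept, all 4 higher in OVA cells (median difference 0.44). Bcl10 and Malt1 were each detected in 4 OVA cells and 1 nothing cell (differences 0.44 and 0.45), Tab2, an adaptor of the kinase TAK1, in 3 and 0 (0.75) and Pdpk1 in 3 and 1 (0.25). Of 13 receptors and adaptors that feed the pathway 6 were detected and 3 kept. Tlr4 (0.61) and Myd88 (0.46), a toll-like receptor and its adaptor, were found in 3 OVA cells each, and Cd28, the costimulatory receptor of T cells, in OVA cell 13 and nothing cells 4 and 6 (-0.70).

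Among 25 further NF-kappaB target genes 21 were detected and 5 were kept, all 5 higher in OVA cells (median difference 0.37), against 56.4% of all kept genes. Fth1, the ferritin heavy chain, differed by 1.22 and was highest in OVA cell 8 with 1387 TPM, and Stat5a differed by 0.64. Junb (9 and 2 cells, 0.37) and the anti-apoptotic genes Birc3 (3 and 1 cells, 0.04) and Cflar (3 and 1 cells, 0.02) were found in both groups. Icam1, an adhesion molecule, had 220 and 49.2 TPM in OVA cells 13 and 9, both with subunit mRNA. Ccl3, a chemokine gene, was at 279 TPM in OVA cell 8 alone. Other targets were highest in OVA cells with none of the 10 genes. Il1b had 778 TPM in OVA cell 12, Sod2 69.5 TPM in OVA cell 20 and Irf1 59.8 TPM in OVA cell 21. Nothing cell 4, with none of the 10 genes, had the targets Tnf (26.8 TPM), Il2 (48.0), Il6 (14.9), Ccl4 (123), Cxcl2 (41.7) and Cd83 (15.2). As given above, that library had only 2 of 10 housekeeping genes and a ratio of olfactory and vomeronasal receptor detection of 1.33. Cflar, Icam1, Ccl3, Il1b, Sod2, Irf1 and the targets of nothing cell 4 were picked after their values were seen.

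The remaining RNA-binding decay and stability factors were mixed in direction. Of 15 such genes 13 were detected, 8 with a higher and 5 with a lower mean in OVA cells. Of the 6 kept ones 1 was higher and 5 were lower (median difference -0.55), against 43.6% of all kept genes that were lower. Tia1 (-1.58) and Tial1 (-1.11), which encode translational repressors of stress granules, had 113 TPM in nothing cell 2 and 75.7 TPM in nothing cell 1, respectively, and both were also found in nothing cell 4 and in 1 OVA cell each. Elavl1, which stabilises AU-rich mRNAs, differed by -0.59 and Rc3h2, a roquin, by -0.50, the latter with 161 TPM in nothing cell 4. These differences thus come from 3 nothing libraries with few genes detected (cells 1, 2 and 6, with 373, 161 and 110 genes) and from nothing cell 4.

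Of 26 genes of the deadenylation, decapping and exonuclease machinery 19 were detected and 11 were kept, 7 higher and 4 lower, with a median of 0.17. Pabpc1, the cytoplasmic poly(A)-binding protein, was found in 8 OVA cells and none of the nothing cells (2.04), and Pan3, a subunit of a deadenylase, in 10 and 1 (1.12). Cnot6l, a deadenylase of the CCR4-NOT complex that Zfp36 recruits, was found in 3 OVA cells (0.66) and Cnot2, another subunit, in 2 OVA and 2 nothing cells (-0.81).

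Of 22 AU-rich early response and cytokine transcripts, the kind of mRNA that Zfp36 acts on, 15 were detected and 8 kept. Of these 7 were higher and 1 was lower in the OVA group (median difference 0.69), and 4 of the 7 were kept through OVA cells alone, against 56.4% higher and 25.3% detected in OVA cells only among all kept genes. Ier2 was detected in 8 OVA cells (1.22), of which cells 7, 8, 9 and 17 also had Zfp36. Fos was in OVA cells 4, 14 and 16 (0.83), and each of these had a decay factor of the family, which 10 of the 29 cells had. In OVA cell 4 that factor was Zfp36l2 at 1.41 TPM, close to the detection threshold. Mcl1 (0.73) and Cd69 (0.76) were found in 3 OVA cells each, with Cd69 at 627 TPM in OVA cell 13, which had Zfp36l1 but not Zfp36. Housekeeping genes differed by more, with Actb at 3.31, Eef1a1 at 2.58, Tpt1 at 1.78 and B2m at 1.63. The 6 kept genes of the group thus had a median of 0.77, next to 0.69 for these early transcripts and 1.63 for housekeeping genes in the same cells. The difference between these lists was not tested.

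**Figure D5:**
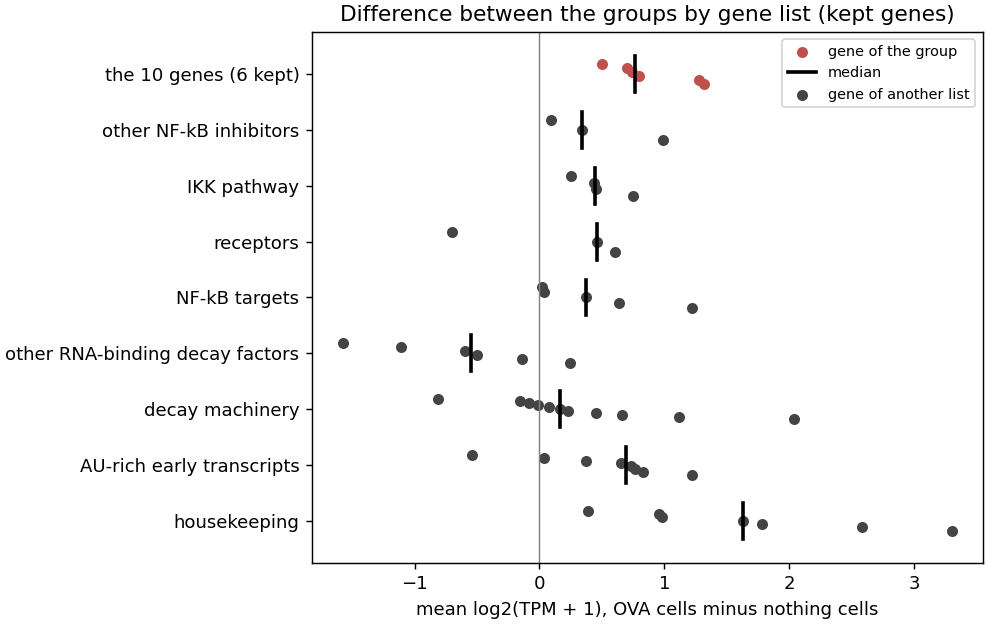
Difference in mean log2(TPM + 1), OVA cells minus nothing cells, of each kept gene by list (points) with the list median (black bar). The 6 kept genes of the group (red) lie between 0.50 and 1.31, and the housekeeping genes have the highest median, 1.63.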

How the data were processed

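The authors deposited 1 table of TPM values with 1 column per cell for 29 SMART-seq2 libraries, 21 OVA and 8 nothing. Each column sums to 1000000 over 54838 genes, 92 ERCC spike-ins and 3 transgenes. GRCm38, mm10, HISAT2 2.1.0, featureCounts 1.6.4 and StringTie 1.3.5 are named, without roles, per the submitters' processing notes. Any filtering of cells is not given in the sources used here. Of gene entries 97.3% are 0. Identifiers and chromosomes of 54809 genes matched GENCODE M21 (GRCm38), from which positions and 3' untranslated regions were taken. RefSeq gave the promoter windows.

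Differences are of mean log2(TPM + 1), with detection at 1 TPM and genes kept when detected in 3 cells. TPM keeps no read numbers, so depth is unknown. With 1 sample per group no test was made and no p-value is given. Doublets were not called. The 10 genes, the 9 gene lists and the 6 marker lists were chosen with earlier results of these data known. Of each list, up to 4 kept genes with the largest absolute difference were named, and up to 3 genes of most similar pattern per gene found in at least 4 cells. Genes named beyond that rule, such as Relb, Icam1 and Cflar, were chosen after their values were seen. Alternatives were other pseudocounts, filters, detection thresholds, scalings and subsets of cells. Only the step that takes the difference of group means was checked, with known shifts added to shuffled real values. It returned the shifts, which arithmetic alone would give, and the other steps had no such check. Python 3.11.15, numpy 2.4.6, pandas 2.3.3, scipy 1.17.1 and matplotlib 3.10.9 were used.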

Additional observations from a re-analysis of the deposited data

Results flagged for a closer look

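Zfp36l2 stood apart in 1 nothing cell: it was at 4.43 TPM in nothing cell 7 and at 0 in the other 7, and for the same reason the number of the 10 genes detected was 1 in that cell and 0 in the others. The number of genes detected was far above the rest in nothing cell 4, with 6385 against 2364 in the next cell. Chance flags about 1 in 20 groups, and where all other cells are at 0 any value above 0 stands apart in this way.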

How the results depend on the processing

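Across the pseudocounts, scalings and cell subsets, and the extremes with single cells left out, the differences of the 10 genes were above 0 in 99 of 100 values and at 0 for Rela without OVA cell 8. A value below 0 is not possible for the 9 genes at 0 in all nothing cells. The number of kept genes of the group at least 1 higher was 2 as reported, 5 with a pseudocount of 0.1, 0 with a pseudocount of 10, 4 with size factors and 6 after rescaling over nuclear protein-coding genes. The size factors rest on only 11 genes and differ between the groups, with medians of 0.71 in OVA cells and 2.49 in nothing cells. At a detection threshold of 10 TPM, OVA cells with 2 or more of the genes went from 8 to 5 and pairs seen together from 38 to 20. When single cells were left out, the median difference ranged from 0.55 to 0.81, the genes at least 1 higher stayed at 2 and at least 1 lower at 0, OVA cells with 2 or more genes ranged from 7 to 8 and nothing cells stayed at 0, genes per OVA cell from 1.40 to 1.75 and per nothing cell from 0 to 0.143, and pairs from 29 to 38. The median over all kept genes shifted by 0.15 without spike-ins, 0.39 with size factors and 0.40 with rescaling over nuclear protein-coding genes, and relative to it the median of the group was 0.69, 0.55 and 1.07, against 0.67 as deposited. That all-gene median turned to -0.19 without cells over 90% spike-ins and to -0.24 without cells under 500 genes, where the group's median was 0.99 and 0.85. The cause was not tested. With a filter of at least 10 cells none of the 10 genes was kept. TPM gives no depth, so a 0 limits what can be said in the poor libraries. No paired analysis was possible because the labels give the groups no shared replicate numbers.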
